A study of Cricetulus griseus with 16 samples.

Results

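Cirbp and Rbm3 encode the cold-inducible RNA-binding proteins, and their mRNA was followed here in CHO cells that were heated instead of cooled. Members were chosen by name, ignoring upper and lower case, which gave 2 of the 20824 genes counted: Cirbp (listed as CIRBP, ENSCGRG00001021763) and Rbm3 (ENSCGRG00001018909). CHO is an established line from Chinese hamster ovary, and the cultures came from the ATCC CCL-61 stock and were grown in Ham's F-12K medium with fetal bovine serum, penicillin and streptomycin. They were plated 24 h before treatment and then kept at 37 °C, or heated for 1 h or 6 h at 40 °C, or for 1 h at 42.5 °C, with 4 biological repeats of each, lettered A to D. No time is given for the 37 °C group, so 6 h of heat and longer culture cannot be told apart. The libraries held between 10504192 and 14668365 counted reads. The study excluded 1 control without naming it. Replicate D at 37 °C was left out here, inferred to be that sample because its counts alone are not those the study printed, so that controls are replicates A, B and C unless stated.

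Both proteins are small, with an RNA recognition motif followed by a stretch rich in arginine and glycine. In mammalian cells they accumulate under mild hypothermia, bind mRNAs and support their stability and translation, and they are also found in stress granules. Their own mRNAs are known to respond to temperature through splicing and through transcription. The present libraries ask how far these cold-induced mRNAs are lowered in fever-range and stronger heat.

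Rbm3 mRNA fell 1.94-fold after 6 h at 40 °C, whereas its mean after 1 h was 83.0% of the control mean at 40 °C and 84.3% at 42.5 °C, neither of them a called difference. The mean of Cirbp mRNA was 91.0%, 82.2% and 90.4% of control after 1 h at 40 °C, 6 h at 40 °C and 1 h at 42.5 °C, and none of these reached a fold change of 1.5. Levels are given as CPM, counts relative to the size of the library, scaled by TMM, a library-size correction in edgeR. They are shares of each library, so in these bulk samples less RNA per cell and fewer cells that express the gene cannot be told apart.

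Rbm3 was measured at 63.0, 58.9 and 66.6 CPM in control replicates A, B and C. After 1 h at 40 °C its level was 54.0, 46.4, 60.8 and 47.5 CPM in replicates A to D. These ranges overlapped, since replicate C lay above control replicate B.

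After 6 h at 40 °C, Rbm3 was at 34.0, 32.5, 38.5 and 24.9 CPM in replicates A to D. Every one of these libraries lay below every control library and below every library heated for 1 h at 40 °C. After 1 h at 42.5 °C its level was 64.0, 50.9, 52.2 and 44.8 CPM, and replicate A was above 2 of the 3 controls while the others were below all of them. The mean level was thus 62.8 ± 3.82 CPM (SD, n = 3) at 37 °C, 52.2 ± 6.64 CPM (SD, n = 4) after 1 h at 40 °C, 32.5 ± 5.63 CPM (SD, n = 4) after 6 h at 40 °C and 53.0 ± 8.04 CPM (SD, n = 4) after 1 h at 42.5 °C.

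Cirbp was at 110.0, 108.1 and 105.7 CPM in control replicates A, B and C. After 1 h at 40 °C it was at 99.0, 105.8, 95.2 and 92.9 CPM in replicates A to D, and the highest of these, replicate B, lay just above control replicate C. After 6 h at 40 °C it was at 102.2, 91.4, 77.1 and 83.9 CPM, with all 4 libraries below all controls, as for 17.6% of all genes tested. The library with the lowest Cirbp level in this group, replicate C, was the one with the highest Rbm3 level. After 1 h at 42.5 °C it was at 97.0, 105.9, 94.8 and 92.5 CPM, close to the values after 1 h at 40 °C and again with only replicate B above the lowest control. The mean level was 107.9 ± 2.13 CPM (SD, n = 3) at 37 °C, 98.2 ± 5.66 CPM (SD, n = 4) after 1 h at 40 °C, 88.7 ± 10.7 CPM (SD, n = 4) after 6 h at 40 °C and 97.5 ± 5.85 CPM (SD, n = 4) after 1 h at 42.5 °C.

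**Figure D1:**
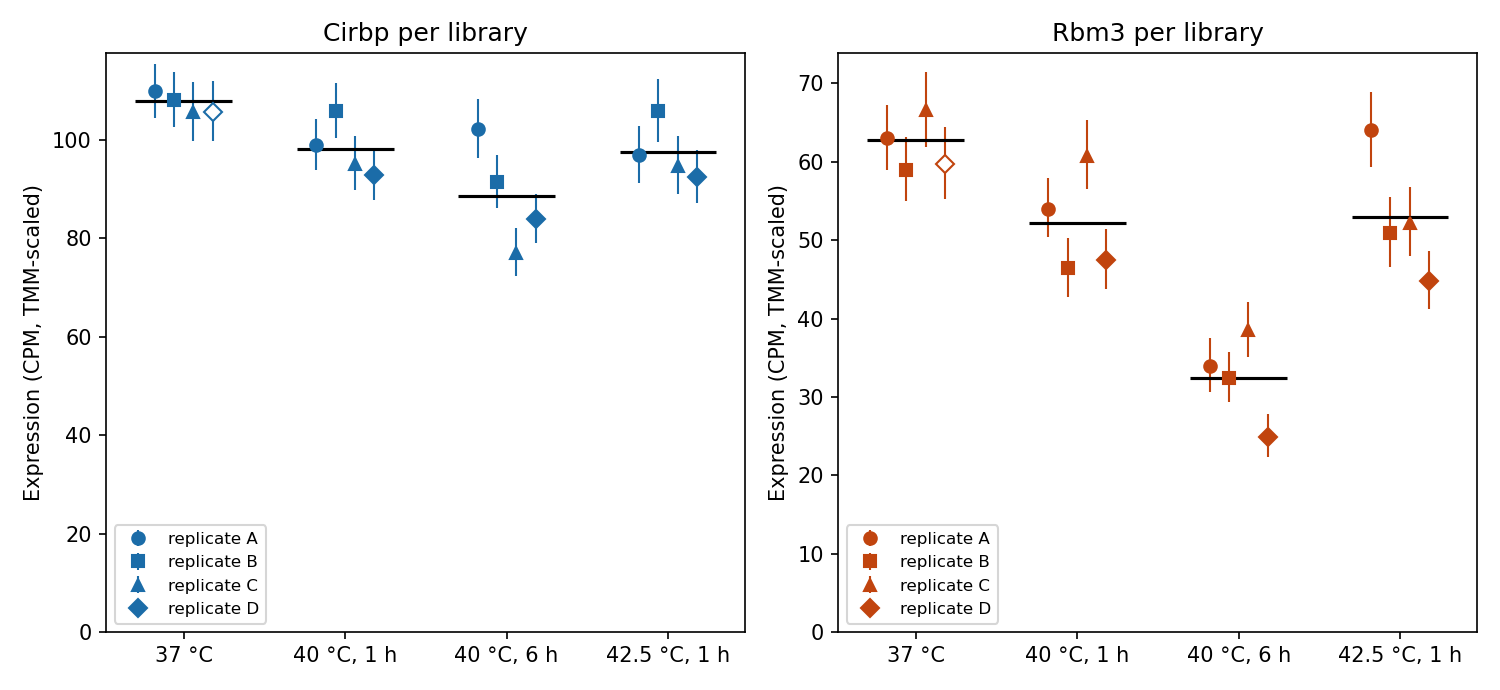
Expression of Cirbp (left) and Rbm3 (right) in each of the 16 libraries, in CPM scaled by TMM on a linear axis from 0. Symbols are replicates A to D with 95% exact Poisson intervals (counting error only), horizontal bars are group means, and the open diamond is 37 °C replicate D, which is left out of the mean. The 4 Rbm3 values after 6 h at 40 °C, from 24.9 to 38.5 CPM, sit below all other Rbm3 values.

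Between 978 and 1567 reads were counted on Cirbp and between 320 and 898 on Rbm3, and the spread expected from counting alone was 5.00% for Rbm3 after 6 h at 40 °C, where the libraries varied by 17.3% (coefficient of variation). Replicate D at 37 °C was at 105.8 CPM for Cirbp and 59.7 CPM for Rbm3. Both values lay within the range of the other 3 controls.

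Groups were compared by the quasi-likelihood test of edgeR over all genes, and a gene was called when its Benjamini-Hochberg adjusted p was under 0.05 and its fold change at least 1.5. After 6 h at 40 °C, Rbm3 fell by 0.96 on the log2 scale (SE 0.10, 95% interval -1.16 to -0.75, adjusted p = 3.48e-06), a 1.94-fold lower level and 51.7% of the control mean. Only 37 of the 10499 genes tested had a lower fold change. Of all genes tested in this comparison, 1.66% were called lower, and 17.6% had all heated libraries below all controls.

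The log2 fold change of Cirbp in the same comparison was -0.29 (SE 0.07, 95% interval -0.44 to -0.14, adjusted p = 0.00535), which is 82.2% of the control mean. It passed the adjusted p and not the fold change, and its whole interval lay short of a 1.5-fold lower level. By adjusted p alone 14.8% of all genes tested were lower, so that Cirbp was 1 of many genes with a difference of this kind. With all 4 controls its adjusted p was 0.0617.

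The 1 h treatment at 40 °C called neither gene. The log2 fold change was -0.27 for Rbm3 (SE 0.08, adjusted p = 0.117) and -0.14 for Cirbp (SE 0.05, adjusted p = 0.213). In this comparison 0.0572% of genes were called lower and 0.572% were lower by adjusted p alone. Deviations from group means correlated weakly for the same letter in this comparison (r = 0.10 to 0.19, 3 pairs). Unlike letters reached 0.15, so that pairing by letter is not established. With the letter as a block the Rbm3 value was -0.23 with an adjusted p of 0.00795, still under a fold change of 1.5. This was the lowest adjusted p of 17 fits by edgeR or DESeq2 that varied the processing or left out 1 library. The highest was 0.567, and Rbm3 was called in none of them.

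After 1 h at 42.5 °C, the log2 fold change was -0.25 for Rbm3 (SE 0.09, adjusted p = 0.0286) and -0.16 for Cirbp (SE 0.05, adjusted p = 0.0195). Neither reached a 1.5-fold change, and both were therefore not called, in a comparison where 4.68% of genes were called lower and 22.3% were lower by adjusted p alone. With each library left out in turn, the adjusted p ran from 0.000661 to 0.114 for Rbm3 and from 0.00692 to 0.0736 for Cirbp. Heat itself was evident in all 3 treatments from the chaperone genes Dnajb1, an HSP40 co-chaperone, and Hsph1, an HSP110 family member. Dnajb1 averaged 28.4 CPM at 37 °C, 87.5 after 1 h and 44.6 after 6 h at 40 °C, and 394.0 after 1 h at 42.5 °C. Hsph1 averaged 323.6, 683.1, 751.8 and 2526 CPM in the same order, and both genes were called higher in each comparison with 37 °C.

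The heated groups were then compared with each other. Temperature and duration both differ between 1 h at 42.5 °C and 6 h at 40 °C, so that their effects there cannot be told apart. Rbm3 was 1.61-fold lower after 6 h than after 1 h at 40 °C (log2 fold change -0.69, SE 0.11, adjusted p = 0.00044), where 0.728% of genes were called lower and 10.3% had no overlap in this direction. This call rested on replicate D of the 6 h group, without which the log2 fold change was -0.58 (adjusted p = 0.000821) and just under 1.5-fold. It was 1.62-fold higher after 1 h at 42.5 °C than after 6 h at 40 °C (log2 fold change 0.70, SE 0.11, adjusted p = 8.52e-05), where 2.53% of genes were called higher and 20.5% had no overlap in this direction; here too the Rbm3 libraries of the groups did not overlap.

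Between the 1 h treatments at 42.5 °C and 40 °C, Rbm3 differed by 0.01 on the log2 scale (95% interval -0.19 to 0.22, adjusted p = 0.931) and Cirbp by -0.02 (95% interval -0.13 to 0.09, adjusted p = 0.809). Both intervals exclude a 1.5-fold difference in either direction, in a comparison where 5.27% of genes were called. Cirbp differed by -0.15 between 6 h and 1 h at 40 °C (adjusted p = 0.152) and by 0.13 between 1 h at 42.5 °C and 6 h at 40 °C (adjusted p = 0.136). By mean Rbm3 level the groups ran from 37 °C through 42.5 °C and then 40 °C, both for 1 h, down to 6 h at 40 °C, in which only the last step was called between neighbours, whereas Cirbp, in which the 1 h treatments changed places, had no called step.

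**Figure D2:**
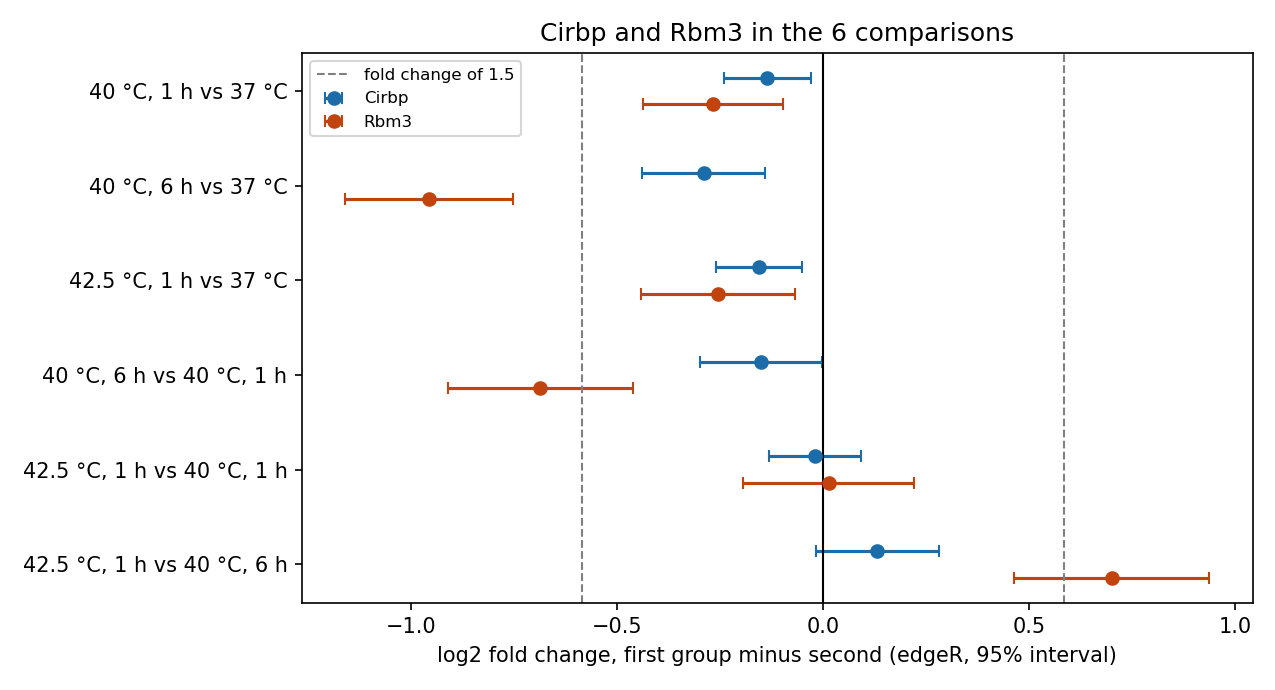
Log2 fold changes of Cirbp and Rbm3 in the 6 comparisons, first group minus second, from edgeR with 95% intervals; dashed lines mark a fold change of 1.5 either way. Rbm3 is at -0.96 after 6 h at 40 °C against 37 °C, and all Cirbp values lie between the dashed lines.

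To set both genes against each other independently of library scaling, the log2 ratio of Rbm3 to Cirbp counts was taken within each library. The ratio depends on transcript lengths too, so only its differences between libraries are read. It was -0.80, -0.88 and -0.67 in control replicates A, B and C, and -0.87, -1.19, -0.65 and -0.97 after 1 h at 40 °C. After 6 h at 40 °C it was -1.59, -1.49, -1.00 and -1.75 in replicates A to D, all below the controls, with replicate C closest to them. At 42.5 °C it was -0.60, -1.06, -0.86 and -1.05, which spans the control range.

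The mean ratio after 6 h at 40 °C was 0.68 lower on the log2 scale than at 37 °C (-1.46 ± 0.32, SD, n = 4, against -0.78 ± 0.11, SD, n = 3). The two-sided exact permutation p was 0.0571, the smallest that 4 against 3 libraries can give, and the adjusted p over the 6 comparisons was 0.171. The difference between 6 h and 1 h at 40 °C was -0.54, with an exact p of 0.0571 and an adjusted p of 0.171, and here the groups overlapped. The smallest exact p for 4 against 4 libraries was 0.0286, so after adjustment none of the 6 comparisons could pass 0.05. This test therefore could not decide whether Rbm3 responded more than Cirbp. In edgeR, the intervals for 6 h at 40 °C against 37 °C were -1.16 to -0.75 for Rbm3 and -0.44 to -0.14 for Cirbp. These intervals did not overlap, but the difference between the genes was not tested in edgeR.

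**Figure D3:**
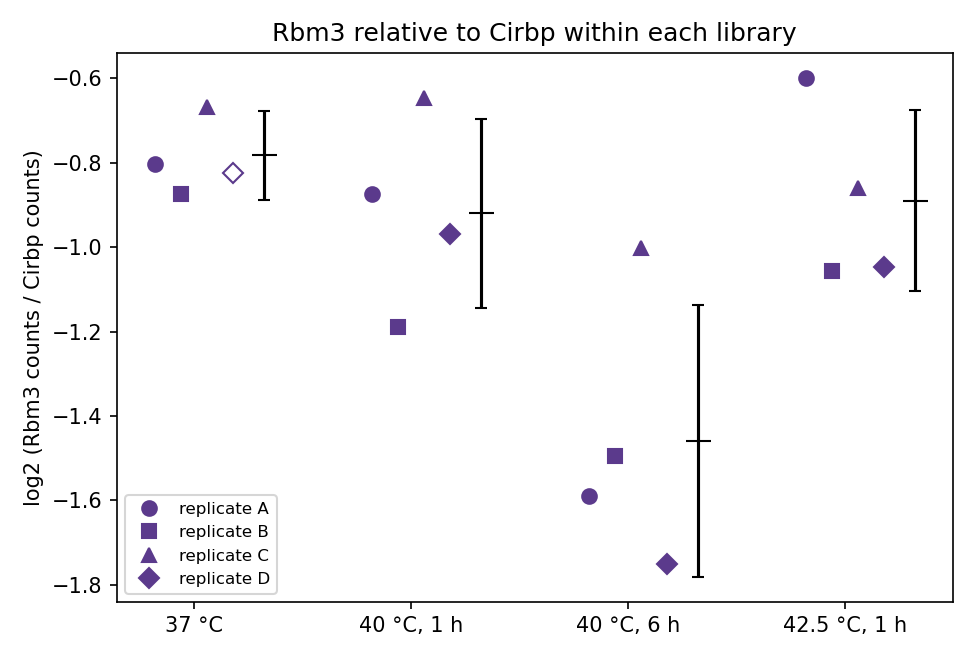
Log2 ratio of Rbm3 to Cirbp counts within each library (symbols, replicates A to D; the open diamond is 37 °C replicate D, left out of the mean), with group mean ± SD in black. The 4 libraries heated for 6 h at 40 °C lie between -1.75 and -1.00, below the 3 controls at -0.88 to -0.67.

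Genes known to act on CIRBP or RBM3 were examined next: 12 regulators or modifiers, of which 10 had enough reads to be tested. These lists were drawn up with earlier results of these data known, and Hnrnph1, Trpv3, Trpv4, Rbm12 and the neighbouring genes named further on are outside the rule for named genes and were chosen after values were seen, the neighbours by position. None of the 10 was called lower than at 37 °C in any treatment, where 0.0572%, 1.66% and 4.68% of all genes were called lower, so that this is near the share over all genes. Clk1, a kinase that phosphorylates SR splicing factors and whose activity is temperature-sensitive, was called higher in all 3 treatments, where 0.276%, 1.45% and 2.83% of all genes were called higher.

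Clk1 averaged 82.3 ± 5.11 CPM (SD, n = 3) at 37 °C, 193.4 ± 37.8 CPM (SD, n = 4) after 1 h at 40 °C, 125.5 ± 11.4 CPM (SD, n = 4) after 6 h at 40 °C and 253.8 ± 52.2 CPM (SD, n = 4) after 1 h at 42.5 °C. Its log2 fold changes against 37 °C were 1.23 (adjusted p = 9.7e-05), 0.61 (adjusted p = 1.01e-05) and 1.62 (adjusted p = 6.45e-08). The call after 6 h was close to the 1.5-fold limit, and no regulator was called there without control replicate B, without replicate B of the 6 h group, or with all 4 controls. Clk1 was lower after 6 h than after 1 h at 40 °C (log2 fold change -0.62, adjusted p = 0.00079).

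Sp1, the transcription factor reported to act at the Cirbp promoter, was called higher only after 1 h at 42.5 °C, at 49.2 ± 4.47 CPM (SD, n = 4) against 30.0 ± 2.10 CPM (SD, n = 3) at 37 °C (log2 fold change 0.71, adjusted p = 3.28e-06). After 6 h at 40 °C its log2 fold change was 0.51 (adjusted p = 6.17e-05), under the fold limit. Hnrnph1, which regulates the splicing of an Rbm3 exon, had log2 fold changes of -0.06, -0.15 and 0.03 after 1 h at 40 °C, 6 h at 40 °C and 1 h at 42.5 °C. The channel genes Trpv3 and Trpv4 had at most 1 read in any library and were not tested. The median log2 fold change of the 10 tested regulators was 0.02, 0.11 and 0.12 in the same order, whereas the median of all genes tested was within 0.01 of 0 in each comparison. This difference in medians was not tested. By adjusted p alone 3 of the 10 were higher and 2 lower after 6 h at 40 °C, beside 14.7% and 14.8% of all genes.

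Among mRNAs known as bound or stabilised by CIRBP or RBM3, 9 were found and all were tested. None was called in either treatment at 40 °C against 37 °C, and 1 was called after 1 h at 42.5 °C, where 7.51% of all genes were called, so that 1 of 9 is near the share over all genes. This was Ptgs2, which encodes cyclooxygenase-2, at 34.4 ± 9.84 CPM (SD, n = 4) against 16.2 ± 0.17 CPM (SD, n = 3) in controls (log2 fold change 1.09, adjusted p = 6.64e-05). The median log2 fold changes of the list were 0.05, 0.07 and 0.05.

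After 6 h at 40 °C, where Rbm3 was lowest, Tert (telomerase reverse transcriptase) had a log2 fold change of 0.41 (adjusted p = 0.00214), Ptgs2 of 0.37 (adjusted p = 0.00377), Vegfa (vascular endothelial growth factor A) of -0.52 (adjusted p = 0.000265) and Ccne1 (cyclin E1) of -0.36 (adjusted p = 0.00752), all under the fold limit. Clock, the circadian transcription factor, had 0.07 (adjusted p = 0.387), and Rpa2, a single-strand DNA-binding subunit, had 0.11 (adjusted p = 0.157). Apart from Ptgs2, these genes were outside the naming rule and were chosen after their values were seen. Between 1 h at 42.5 °C and 6 h at 40 °C, Vegfa (log2 fold change 0.85, adjusted p = 4.45e-06) and Ptgs2 (0.72, adjusted p = 0.000485) were called higher and Tert (-0.91, adjusted p = 2.76e-07) lower. In that comparison 2.53% of all genes were called higher and 5.72% lower.

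Other proteins with a cold-shock domain, the fold shared with bacterial cold-shock proteins and distinct from the RNA recognition motif, gave 6 genes found and 2 tested. Ybx3 averaged 316.1 CPM at 37 °C and 313.7 CPM after 6 h at 40 °C (log2 fold change -0.01, adjusted p = 0.847). Carhsp1 averaged 51.4 and 52.0 CPM in the same groups (log2 fold change 0.02, adjusted p = 0.859). Neither gene was called in any of the 6 comparisons.

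Stress granule proteins, the set of RNA-binding proteins that condense with untranslated mRNA, gave 15 genes, all tested and none called in any comparison. With 0.334%, 3.11% and 7.51% of all genes called against 37 °C, none of 15 is near the share over all genes. Among them Tial1, a TIA1-related protein, averaged 126.0 CPM at 37 °C and 157.3 CPM after 6 h at 40 °C, with a log2 fold change of 0.32 (adjusted p = 9.65e-05). By adjusted p alone 4 of the 15 were higher and 4 lower after 6 h at 40 °C, where 14.7% of all genes were higher and 14.8% lower.

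The family named RBM, which shares the RNA recognition motif and little else, had 33 further genes in the table, of which 26 were tested. Rbm3 was called lower against 37 °C only after 6 h at 40 °C, and no other RBM gene was called lower in any treatment. Of all genes tested, 0.0572%, 1.66% and 4.68% were called lower after 1 h at 40 °C, 6 h at 40 °C and 1 h at 42.5 °C. None of the 26 others is thus near the share over all genes. Rbm3 was not the lowest RBM gene in either 1 h treatment. At 42.5 °C Rbm12 was at -0.52 (adjusted p = 4.7e-05) and Rbm19 at -0.44 (adjusted p = 2.11e-06), with Rbm3 at -0.25. At 40 °C for 1 h Rbm43 was at -0.44 (adjusted p = 0.0941), with Rbm3 at -0.27. Rbm19 and Rbm43 were chosen after values were seen. By adjusted p alone 5 of the 26 were higher and 5 lower at 42.5 °C, beside 2180 and 2330 of 10470 genes tested. After 6 h at 40 °C the next lowest after Rbm3 was Rbm12, at -0.26 (adjusted p = 0.00389), and the family median without Rbm3 was 0.01. Rbm4b, a splicing regulator, was called higher there (log2 fold change 0.63, SE 0.17, adjusted p = 0.00884), from 4.92 to 7.66 CPM and on 55 to 131 reads a library. Without replicate B of the 6 h group Rbm4b was not called, while Rbm3 was.

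After 1 h at 42.5 °C, Rbm15, a component of the m6A methylation complex, was called higher (log2 fold change 0.63, SE 0.08, adjusted p = 1.67e-05), at 38.0 ± 2.23 CPM (SD, n = 4) against 24.3 ± 2.80 CPM (SD, n = 3), a call that was lost without control replicate C. Rbm5, a splicing factor chosen after its values were seen (log2 fold change -0.72, adjusted p = 9.6e-08), and Rbm4b (-0.61, adjusted p = 0.00798) were called lower after 1 h at 42.5 °C than after 6 h at 40 °C, where 5.72% of all genes were called lower and Rbm3 was called higher. Across all 5 lists, 1, 2 and 4 of 62 tested genes were called in the 3 comparisons with 37 °C, beside 0.334%, 3.11% and 7.51% of all genes tested.

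**Figure D4:**
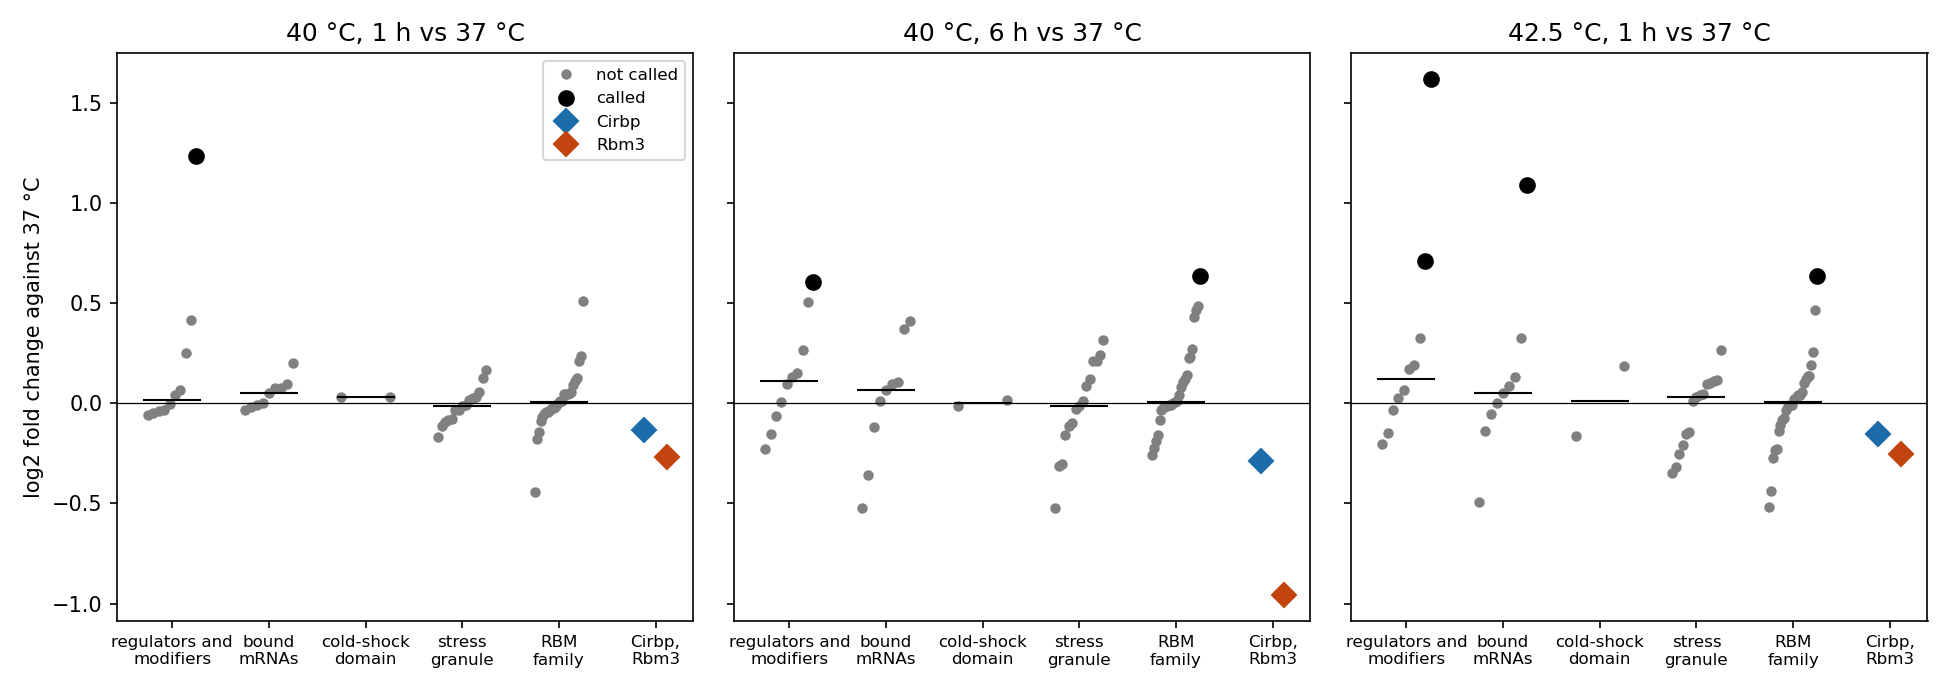
Log2 fold changes against 37 °C (edgeR) of each tested gene in the 5 lists and of Cirbp and Rbm3, 1 panel per treatment; large black points were called, grey points were not, and bars are list medians. Rbm3 at -0.96 in the middle panel lies below every listed gene.

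Genes next to Cirbp and Rbm3 were taken by their order in RefSeq, on assembly CriGri-PICRH-1.0, which is not the build behind the counts. That table puts Cirbp on chromosome 5 and Rbm3 on chromosome X, with no overlapping gene at either. Neighbours were taken only among genes counted under the same name, so a gene in between could be passed over. On either side of Rbm3, Wdr13, Tbc1d25 and Ebp had log2 fold changes of 0.07, -0.05 and -0.10 after 6 h at 40 °C, and Was had at most 2 reads and was not tested. Around Cirbp, Cbarp (0.35), Efna2 (0.40) and Pwwp3a (0.20) were higher in value and Midn, which encodes the nuclear protein midnolin, was at -0.50 (adjusted p = 5.65e-05), all under the fold limit. Midn (-1.00, adjusted p = 1.27e-06) and Tbc1d25 (-0.60, adjusted p = 0.000218) were called lower after 1 h at 42.5 °C, where 4.68% of all genes were called lower. The remaining tested neighbours were not called there: Cbarp (-0.12), Efna2 (-0.15), Pwwp3a (-0.12), Wdr13 (-0.17) and Ebp (-0.0048).

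The genes whose profile was most like each member were ranked by Pearson's r of log2 CPM over 15 libraries, among 8486 genes averaging at least 10 CPM. These are descriptions, since the libraries share treatments. For Rbm3 the closest were Swap70 (r = 0.93), Igfbp4 (0.92), Ezr (0.91), Ltbp3 (0.91) and Zc3h7b (0.91). For Cirbp they were Cryzl2 (0.92), Lhpp (0.89), Parp3 (0.88), Ap2a1 (0.88) and Leprot (0.88). Ranked by Spearman's rho or over all 16 libraries, 2 of these 5 stayed among the 5 closest to Rbm3 and 1 of 5 to Cirbp.

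Each of these genes had its lowest mean after 6 h at 40 °C. Cirbp and Rbm3 were lowest there too, so the ranking itself favours such genes. The amplitude differed from that of Rbm3: Igfbp4, an IGF-binding protein, went from 4169 CPM at 37 °C to 3118 CPM, and Ezr, which encodes the cytoskeletal linker ezrin, from 457.4 to 369.6 CPM. Cirbp and Rbm3 correlated with each other with r = 0.60 (Spearman's rho 0.60) over the 15 libraries. Rbm3 ranked 711 among the genes most like Cirbp, and Cirbp ranked 939 among those most like Rbm3.

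**Figure D5:**
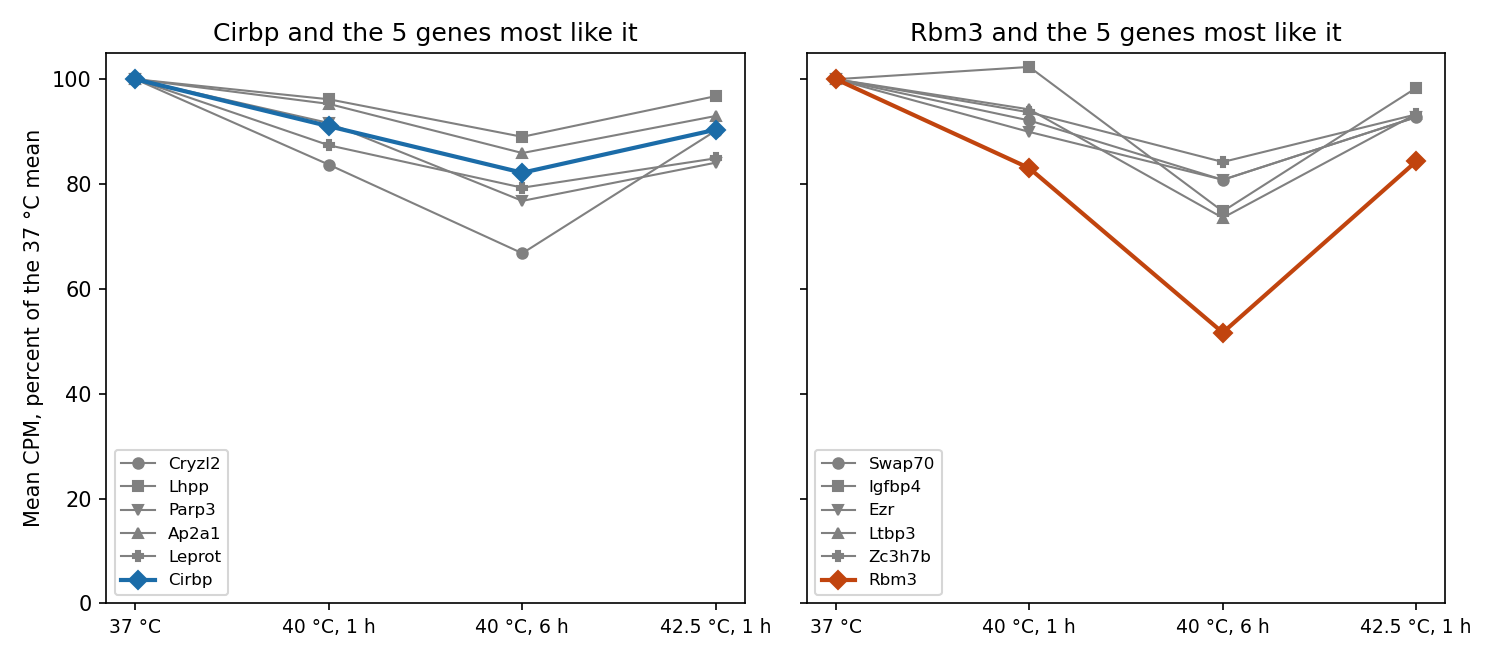
Group mean CPM of Cirbp (left) and Rbm3 (right) and of the 5 genes most correlated with each, as percent of the 37 °C mean on a linear axis from 0; lines only join the groups of a gene. Rbm3 is at 51.7% after 6 h at 40 °C and Cirbp at 82.2%, and every gene shown has its lowest mean there, which choosing genes by correlation favours.

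The libraries were checked against markers of the line and of other cell types. Vim, Fn1 and S100a6 were abundant, with group means between 2010 and 2325, 331.2 and 420.6, and 1110 and 1434 CPM, while Cdh2 had only 2 to 8 reads in a library. Of 5 markers of other cell types, Ptprc (leukocyte), Epcam (epithelium), Pecam1 (endothelium) and Alb (hepatocyte) had at most 4 reads in any library, and Cdh1 (epithelium) had 22 to 48. Mean Vim, Fn1 and S100a6 were each lowest after 6 h at 40 °C, with Vim at 2010 ± 132.8 CPM (SD, n = 4) against 2231 ± 70.5 CPM (SD, n = 3) at 37 °C, and their part in the results was not tested.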

How the data were processed

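RNA of 16 CHO cultures, 4 biological repeats in each of 4 groups, was sequenced from TruSeq RNA libraries on an Illumina NextSeq. Reads were trimmed, mapped to CHOK1GS_HDv1 and counted in CLC Genomics Workbench, and the authors deposited whole read counts per gene without normalization. Annotation release, strand setting and the treatment of multiply mapped reads are not given in the sources used here. Of 20824 genes, 4423 appear by identifier only. Control replicate D was left out, since the study excluded 1 unnamed control and the counts of D alone are not those it printed.

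The test was the quasi-likelihood test of edgeR 4.0.16 (R 4.3.3, glmQLFit, glmQLFTest, filterByExpr defaults, TMM) on the libraries of 2 groups at a time. Adjusted p values come from this test unless another is named, and are adjusted over all genes tested. DESeq2 1.42.0 was an alternative. CPM were scaled by TMM over 16 libraries, with exact Poisson 95% intervals that cover counting error only. Exact permutation tests used scipy 1.17.1. The script was tested on simulated data.

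Members and lists were chosen with earlier results of these data known. Named genes are the 2 members, list genes called against 37 °C, or else the 2 list genes with the largest absolute log2 fold change after 6 h at 40 °C, the 5 genes most like each member, and 2 heat markers; 1 gene that this rule names is not reported here. Replicate letters come from the sample labels. Deviations from group means correlated for the same letter between 0.10 and 0.19 for 40 °C for 1 h against 37 °C, in all 3 pairs above 0.1, and in no other comparison did every pair reach this.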

Additional observations from a re-analysis of the deposited data

Results flagged for a closer look

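Rbm3 differed between heated groups, where duration, time in culture and, in the second comparison, temperature cannot be told apart. Its log2 difference was -0.6853 for 6 h minus 1 h at 40 °C, and it was higher by 0.6999 after 1 h at 42.5 °C than after 6 h at 40 °C, each by edgeR's test of that difference (adjusted p = 0.00044 and 8.52e-05). No group of 4 libraries had a Cirbp or Rbm3 value set apart from the rest by Dixon's test.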

How the results depend on the processing

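Rbm3 after 6 h at 40 °C against 37 °C was called in all 17 fits (log2 fold change -1.05 to -0.84, adjusted p up to 0.00258), as was its difference between 1 h at 42.5 °C and 6 h at 40 °C (0.59 to 0.79). Rbm3 between 6 h and 1 h at 40 °C was called in 16 of 17, with -0.78 to -0.58 when 1 library was left out and the call lost without replicate D of the 6 h group. With adjusted p alone, Cirbp after 6 h at 40 °C (-0.2893) and, after 1 h at 42.5 °C, Cirbp (-0.1551) and Rbm3 (-0.254) also passed, and listed genes called were 2, 27 and 29 against 37 °C, and 22 (40 °C, 6 h against 1 h), 31 and 37 (42.5 °C against 1 h and 6 h at 40 °C), in place of 1, 2, 4, 1, 2 and 6. All genes called rose then from 35, 326 and 786 to 172, 3091 and 4510 against 37 °C, and from 134, 550 and 860 to 1931, 3767 and 4904 between heated groups. With all 4 controls, 1 listed gene was called after 6 h at 40 °C, and 3 of all genes after 1 h at 40 °C. Between the 1 h treatments the sign was not stable: Rbm3 was -0.0418 with total counts only and -0.0847 to 0.0979 with 1 library left out, Cirbp -0.0531 to 0.0195, and their ratio -0.0676 to 0.1203, and 1 listed gene was called with total counts only or no filter. Leaving out 1 library gave 0 to 2 listed genes after 6 h at 40 °C against 37 °C, 0 to 2 between 6 h and 1 h at 40 °C, and 1 to 2 between the 1 h treatments; list counts under these last settings were added after seeing the data. All genes called after 1 h at 40 °C were 56 without its replicate B and 23 without its replicate C. Of the 5 genes most like each member, 1 (Cirbp) and 2 (Rbm3) stayed with Spearman's rho, and 1 and 2 with all 16 libraries. Where letters are shared only by name, the replicate block gave -0.85 (adjusted p = 3.86e-06) for Rbm3 after 6 h at 40 °C and changed no call of Cirbp or Rbm3. The cause of these changes was not tested. Depth limits list genes and neighbours with few reads, Rbm4b among them, with 43 to 131 reads a library.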
